A study of Mus musculus with 4 samples.

Results

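The genes of nuclear factor kappa-B (NF-kappa-B) and of the inhibitors that feed back on it were examined in RNA sequencing libraries of mouse microglia, the resident macrophages of the brain. They comprise 10 of the 56832 gene rows, matched by symbol: the subunit genes Nfkb1, Nfkb2, Rel, Rela and Relb, the inhibitor-of-kappa-B (IkB) genes Nfkbia, Nfkbib and Nfkbie, the nuclear IkB gene Nfkbiz and Tnfaip3, which encodes the ubiquitin-editing enzyme A20. Some of them were chosen by the difference in their counts between these same libraries, so the differences between libraries given below are descriptions. A test of spread over all genes is given as background, and nothing about these 10 genes is read from it. The microglia came from female C57BL/6 mice with no intervention and were sorted from dissociated brain as CD11b-positive cells with low to intermediate CD45. The labels number 4 libraries as replicates of this single group, naive microglia. No group carries a transgene, a deletion or a treatment. The graft-derived brain myeloid cells of the series' design were not analysed here, so the design allows no contrast of groups. Whether each library is a separate animal is not on the labels, so the spread between them may be technical.

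NF-kappa-B factors are dimers of Rel-family proteins that wait in the cytoplasm of resting cells, held there by IkB proteins. Signals from Toll-like, interleukin-1 and TNF receptors activate the IKK kinases, IkB is phosphorylated and destroyed, and the dimers enter the nucleus. Several of the genes they switch on encode their own inhibitors, among them Nfkbia and Tnfaip3, which closes the loop. In macrophages and microglia the pathway drives cytokine and chemokine genes.

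Several of these genes were high in the same libraries, so the 250 bases before their annotated start sites were searched for letters that resemble the binding site of NF-kappa-B. The sequences are RefSeq's on GRCm38.p6, a build other than the GRCm39 of the counts, and 7 of the 10 genes matched an entry by symbol. There was no entry for Nfkb1, Relb or Nfkbiz. The loose motif was GGGNNNNNCC and the tighter motif was GGGAANNNCC, both read on either strand, and every match of the tighter motif is also a match of the loose one. A window each of Nfkbia, Tnfaip3, Rel and Nfkb2 is shown because the first 3 of these genes had a wide range between libraries with every library kept or replicate 4 left out, and Nfkb2 was near absent from replicate 4. Each is written 5′ to 3′ on the strand of its gene, with matches of the loose motif in capitals.
Nfkbia, chr12:55492648-55492897, strand -: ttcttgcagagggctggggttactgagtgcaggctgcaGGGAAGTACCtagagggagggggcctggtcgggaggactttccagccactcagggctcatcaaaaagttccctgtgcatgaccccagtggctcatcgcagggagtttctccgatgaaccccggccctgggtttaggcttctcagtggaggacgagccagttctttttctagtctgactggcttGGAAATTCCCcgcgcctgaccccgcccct
Tnfaip3, chr10:19015411-19015660, strand -: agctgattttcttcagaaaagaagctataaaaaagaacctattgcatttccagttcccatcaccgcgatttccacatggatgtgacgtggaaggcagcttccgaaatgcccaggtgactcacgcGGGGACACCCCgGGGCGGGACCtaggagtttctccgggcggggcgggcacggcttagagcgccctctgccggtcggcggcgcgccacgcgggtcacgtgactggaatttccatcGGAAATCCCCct
Rel, chr11:23770970-23771219, strand -: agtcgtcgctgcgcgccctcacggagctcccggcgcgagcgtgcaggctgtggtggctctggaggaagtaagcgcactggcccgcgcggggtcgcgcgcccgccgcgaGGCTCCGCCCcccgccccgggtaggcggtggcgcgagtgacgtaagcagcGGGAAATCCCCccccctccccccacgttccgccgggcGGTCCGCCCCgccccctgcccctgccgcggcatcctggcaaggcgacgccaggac
Nfkb2, chr19:46304487-46304736, strand +: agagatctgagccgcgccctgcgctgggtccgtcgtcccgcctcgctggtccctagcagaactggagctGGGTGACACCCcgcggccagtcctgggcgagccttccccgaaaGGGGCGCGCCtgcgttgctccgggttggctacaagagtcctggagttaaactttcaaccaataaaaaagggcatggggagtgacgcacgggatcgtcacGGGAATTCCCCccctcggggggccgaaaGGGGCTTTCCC

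The loose motif was present in 45.8% of all 32851 promoter windows and in 9 of the 10 windows of the 7 genes, Nfkbib being the gene without a match. The tighter motif was present in 4.94% of all windows and in 1 window each of Nfkbia, Nfkb2, Rel and Tnfaip3, 4 of the 10 windows. Those of Nfkbia, Nfkb2 and Rel are in the windows shown. That of Tnfaip3 is in its other annotated window, which starts nearer to the end of the gene. Nfkb2 also has other annotated windows, and the one shown has the most matches. It holds 9 loose and 3 tighter matches over both strands, against 5 and 0 in each of the others. Member windows had a median GC content of 61.8%, against 52.4% over all windows, and both motifs are rich in G and C. Among windows of genes that passed the count filter, the shares were 60.4% for the loose and 5.81% for the tighter motif. The AP-1 motif TGANTCA, which reads the same on both strands apart from its middle base, was present in 3 of the 10 windows, 1 each of Nfkb2, Nfkbie and Tnfaip3, and in 6.75% of all windows. The cyclic AMP response motif TGACGTCA was in none of the 10 windows and in 1.55% of all. A match describes the letters only and says nothing of binding in these cells.

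The libraries held 20360121 to 23292655 reads assigned to genes, and levels are given as CPM, in which a library's assigned reads are scaled to one fixed total. All 10 microglial markers, such as Tmem119 and P2ry12, stood at 100 CPM or more in every library. Their summed level was 57901, 30921, 32006 and 60993 CPM in replicates 1 to 4. Replicate 4 stood apart. Of 5111 genes at 20 CPM or more in each of the other libraries, 226 were under 1 CPM in it, which is 4.42%. The same count was 11 genes for replicate 1 and 0 for replicates 2 and 3. Replicates 1 and 4 also had fewer genes with a count, 14850 and 13944, than replicates 2 and 3, with 18978 and 18431. Immediate early genes, a list of 18 transcripts that cells raise within minutes of a stimulus, took 0.553%, 5.97%, 5.18% and 0.578% of counts in replicates 1 to 4.

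Together the 10 genes took 0.0865% of counts in replicate 1 (95% Clopper-Pearson interval 0.0852 to 0.0878). The share was 0.900% in replicate 2 (interval 0.896 to 0.904), 0.869% in replicate 3 (interval 0.865 to 0.873) and 0.0731% in replicate 4 (interval 0.0720 to 0.0743). The intervals cover counting error only and treat reads as independent. Amplified reads are not independent molecules, so the intervals may be too narrow even for that error. The share was thus close in replicates 2 and 3 and far lower in replicates 1 and 4. In bulk libraries, fewer cells with a transcript and less transcript per cell cannot be told apart.

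**Figure D1:**
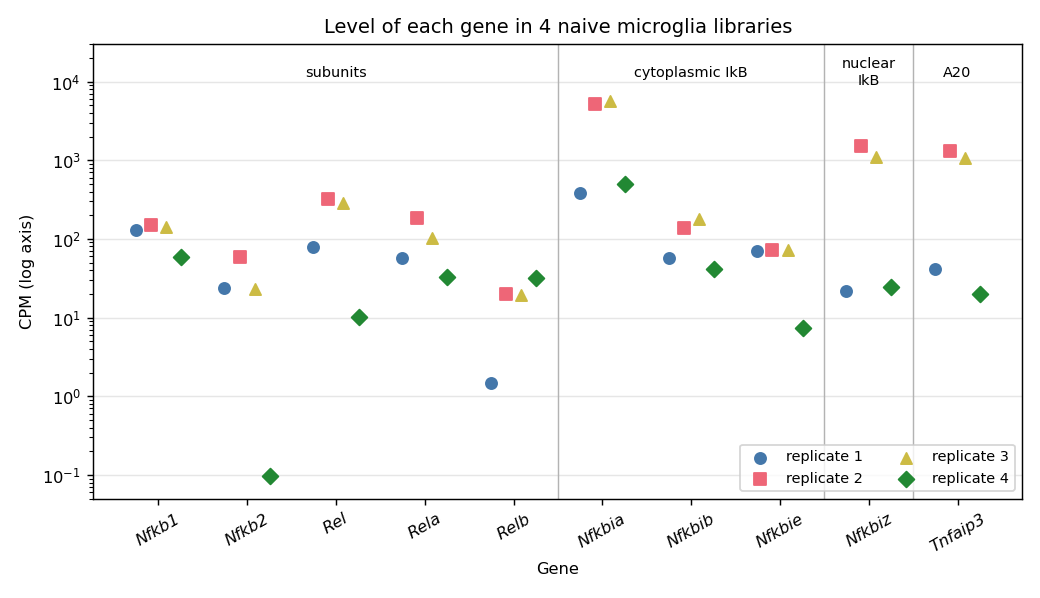
Level of each gene, in CPM on a log axis, with 1 point for each of the 4 naive microglia libraries and vertical lines between the classes. The points of Nfkbia, Nfkbiz and Tnfaip3 fall in a high pair (replicates 2 and 3) and a low pair (replicates 1 and 4), while Nfkb1 and Nfkbie have replicate 4 alone below the rest and Relb has replicate 1 alone below the rest.

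Among the subunits, Rela encodes the main activating partner of the canonical dimer. Rela gave 57.7, 184, 104 and 32.7 CPM in replicates 1 to 4, from 665 to 4160 counts. Its highest library, replicate 2, was 5.64 times its lowest, replicate 4. Nfkb1, whose precursor protein is processed into the other partner of that dimer, gave 130, 151, 140 and 58.4 CPM. Replicates 1 to 3 lay close together and replicate 4 lay below them, a 2.58-fold range that was the narrowest of the 10 genes. Without replicate 4 the log2 range of Nfkb1 was 0.21, against 1.36 with it.

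Rel encodes c-Rel, a subunit best known from lymphocytes and myeloid cells. Rel gave 79.0, 322, 286 and 10.2 CPM in replicates 1 to 4. Replicates 2 and 3 were similar, replicate 1 was 4.08-fold below replicate 2, and replicate 4, with 207 counts, was 31.6-fold below it. Unlike Nfkb1, Rel therefore differed among replicates 1 to 3 as well, with a log2 range of 2.02 there and 4.92 over all libraries.

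Nfkb2 and Relb encode the partners of the non-canonical dimer, which is released when the Nfkb2 precursor is processed. Nfkb2 gave 23.6, 58.4 and 23.2 CPM in replicates 1 to 3. In replicate 4 it had 2 counts, under the floor of 3 counts that a count of 0 allows. The ratio of replicate 2 to replicate 4 was 595, with an exact 95% counting interval of 164 to 4916. Nfkb2 was one of the 226 genes near absent in replicate 4 alone, and without that library its log2 range was 1.31. With it the log2 range rests on the pseudocount, at 6.62 with 0.5, 8.21 with 0.1 and 4.85 with 2. Relb gave 1.46, 19.9, 19.2 and 31.5 CPM, from 30, 449, 447 and 641 counts. It was the only one of the 10 genes with its highest value in replicate 4, and its lowest value, in replicate 1, was 21.6-fold below that. Without replicate 1 the log2 range of Relb was 0.70, against 4.03 with it. The genes of the non-canonical pair thus had their lowest values in different libraries.

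Nfkb2 shares 11.6% of its annotated exon bases with the opposite-strand gene AC114539.1 and 6.52% with Psd. Nfkbib shares 14.5% with Ccer2 and 1.94% with Sirt2, both on the opposite strand. Because the strand setting of the counting is not given in the sources used here, reads in those stretches cannot be told apart.

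The cytoplasmic IkB genes differed from each other in level and in spread. Nfkbia encodes IkB-alpha, the inhibitor that is rebuilt first after a signal. Nfkbia gave 382, 5250, 5702 and 505 CPM in replicates 1 to 4, from 7881 to 132808 counts. Replicates 2 and 3 were 10.4-fold to 14.9-fold above replicates 1 and 4, and within each of these pairs the values differed by 1.09-fold and 1.32-fold. Its mean was 2960 ± 2912 CPM (SD, n = 4), the SD being nearly as large as the mean.

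Nfkbib encodes IkB-beta, a slower inhibitor of the same dimers. Nfkbib gave 56.9, 136, 178 and 41.8 CPM, a 4.26-fold range with replicate 3 highest, as for Nfkbia, and replicate 4 lowest. Nfkbie encodes IkB-epsilon. Nfkbie gave 71.1, 73.2, 73.1 and 7.32 CPM, so 3 libraries lay within 1.03-fold of each other and replicate 4 was 9.99-fold below replicate 3. Without replicate 4 the log2 range of Nfkbie was 0.04, against 3.24 with it. Which of replicates 2 and 3 was highest for Nfkbie turned with the scaling of the libraries.

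Of the 9 genes with over 10 counts in every library, Nfkbiz and Tnfaip3 had the widest ranges. Nfkbiz encodes IkB-zeta, which stays in the nucleus and acts on a set of secondary response genes. Nfkbiz gave 21.5, 1512, 1093 and 24.3 CPM in replicates 1 to 4, from 444 counts in replicate 1 to 34142 in replicate 2. The highest value was 70.2-fold above the lowest. Tnfaip3 gave 41.0, 1295, 1070 and 20.04 CPM, a 64.6-fold range with its lowest value in replicate 4. For both genes replicates 2 and 3 were within 1.38-fold and 1.21-fold of each other, and no value of replicate 1 or 4 came near them.

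**Figure D2:**
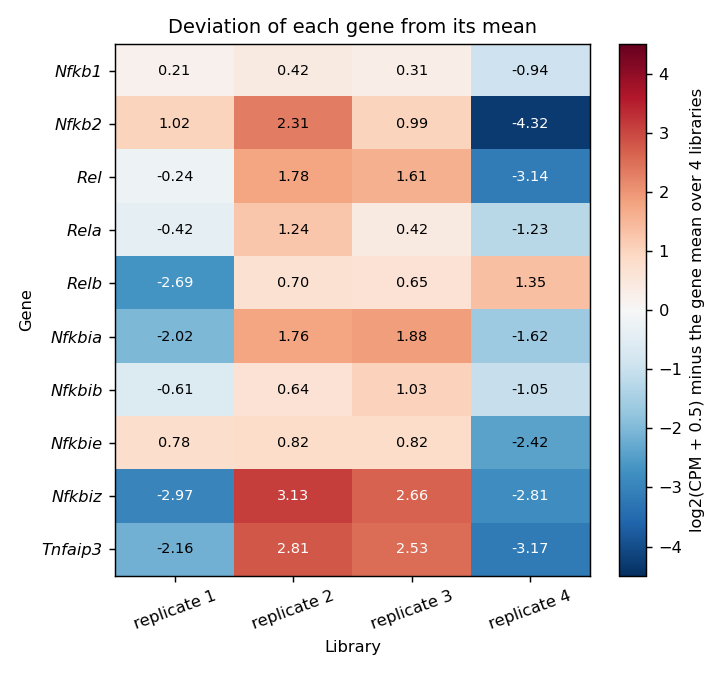
Deviation of each gene (rows) from its own mean over the 4 libraries (columns), in log2(CPM + 0.5), with the value printed in each cell. Nfkbiz and Tnfaip3 run from about 3 above to about 3 below their means, Nfkb2 has its lowest cell in replicate 4 at -4.32, and Relb has its lowest cell in replicate 1 at -2.69.

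Over the 10 genes, 7 had their highest value in replicate 2, 2 in replicate 3, 1 in replicate 4 and 0 in replicate 1. Over all 9075 genes that passed the count filter, the shares were 18.9% for replicate 2, 15.6% for replicate 3, 40.3% for replicate 4 and 25.3% for replicate 1. The lowest value was in replicate 4 for 7 of the 10 genes and in replicate 1 for 3, against 30.7% and 25.5% of all genes tested. It was in replicate 2 or 3 for 0 of the 10 genes, against 24.2% and 19.6%. The rule used these differences, so nothing is read from the counts.

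The test of spread between libraries set each gene's quasi-likelihood dispersion against the trend at its expression level (edgeR, Benjamini-Hochberg adjustment). The filter kept genes with about 10 counts or more in every library, and 9 of the 10 genes passed it, all but Nfkb2. No gene was called at an adjusted p of 0.05: 0 of the 9 genes tested and 0 of 9075 genes in all, a share of 0%. The trend was fitted to these same 4 libraries. None of the 320 tested genes with a log2 range of 4 or more (16-fold) was called. An absence of calls therefore does not show a small spread. At an unadjusted p under 0.05 there were 390 of 9075 genes, or 4.3%. The rule used the spread between these libraries, so no p is given for its genes. DESeq2 marked 0 genes as dispersion outliers. A log2 range of 2 or more (4-fold) was found in 9 of the 10 genes, 8 of them tested, against 23% of all genes tested, and a log2 range of 4 or more (16-fold) in 5 of the 10, 4 of them tested, against 3.53%. The lowest of the 5 was Relb at 4.03, which came to 3.99 under TMM scaling, 3.98 under RLE scaling and 3.28 with a pseudocount of 2. The median log2 range was 3.96 for the 10 genes and 1.22 for all genes tested. Without replicate 4, 5 of the 10 genes kept a log2 range of 2 or more (Rel, Relb, Nfkbia, Nfkbiz and Tnfaip3), against 7.27% of the same 9075 genes, and the medians were 1.84 and 0.73. The gene nearest above the 4-fold line was Nfkbib, at a log2 range of 2.08, and the gene below it was Nfkb1, at 1.36.

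Transcripts of other cell types were also unequal between the libraries. The neutrophil list, with all 10 of its genes at 1 CPM or more in every library, summed to 1548, 315, 300 and 2435 CPM in replicates 1 to 4, high where Nfkbia was low. The oligodendrocyte list, with 8 of 8 genes at 1 CPM or more in every library, summed to 517, 1844, 1875 and 629 CPM, and the border-associated macrophage list, with 9 of 10, to 311, 820, 903 and 473 CPM, both high where Nfkbia was high. The B cell list, with 4 of 8, summed to 803, 324, 384 and 770 CPM, with Ms4a1 at 0 counts in every library. The T and NK cell list, with 0 of 10, summed to 26.0, 29.3, 32.0 and 0.295 CPM. Mitochondrially encoded transcripts took 0.405%, 0.675%, 0.761% and 0.454% of counts. The part of these differences in the values of the NF-kappa-B genes was not tested.

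Levels of different genes were compared per kb of annotated exon, within each library. This comparison of one gene with another in the same library does not use the difference between libraries by which members were picked. The spread of such a comparison over the libraries does use it. Nfkbia was the highest of the 10 genes in 4 of 4 libraries, at 238, 3261, 3541 and 314 CPM per kb in replicates 1 to 4. Nfkbib came second by mean log2 level, with a geometric mean of 40.2 CPM per kb, and the log2 ratio of Nfkbia to it was 4.58 ± 1.19 (SD, n = 4). By an exact permutation test that flips the signs of the library values (two-sided), this pair had p = 0.13 and adjusted p = 0.56 over 9 neighbouring pairs. With 4 libraries no lower p is possible, so the design cannot reach 0.05.

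After Nfkbib the order ran Nfkbiz, Tnfaip3, Rela, Nfkbie, Rel, Nfkb1, Relb and Nfkb2, from a geometric mean of 34.2 down to 1.73 CPM per kb. None of these 8 steps kept its direction in 4 of 4 libraries, and in each the SD of the log2 ratio exceeded its mean. That spread uses the differences between libraries by which some members were picked. Whether neighbours below Nfkbia differ in level is therefore left undecided. Nfkbiz, for example, was second in replicates 2 and 3, the ninth in replicate 1 and the sixth in replicate 4. Relb was last in replicates 1, 2 and 3 and the fourth in replicate 4. The place of Nfkb1 rests on its annotated exons, since its union of exons is 12061 bases and its longest coding transcript 4117 bases. With the latter Rel over Nfkb1 turned from 0.41 to -1.14 on the log2 scale.

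**Figure D3:**
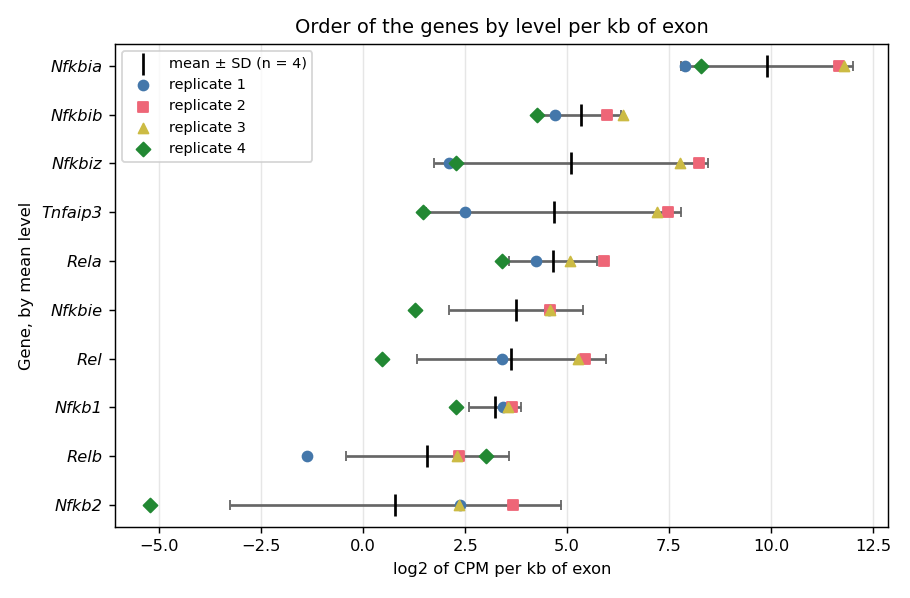
Level of each gene per kb of exon (x axis, log2 of CPM per kb) by library, with genes ordered by mean, the black tick at the mean and the bar at ± SD over 4 libraries. Nfkbia lies above every other gene in each library, and the bars of neighbouring genes below it overlap.

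Within the subunit family, Rela took the steadiest share of the summed level per kb, at 41.1%, 45.0%, 36.0% and 42.6% in replicates 1 to 4. Rel took 23.2%, 32.3%, 40.9% and 5.46%, the share in replicate 4 being the lowest. Relb took 0.834%, 3.84% and 5.28% in replicates 1 to 3 and 32.5% in replicate 4. Nfkb1 took 23.6%, 9.36%, 12.4% and 19.4%, and Nfkb2 took 11.3%, 9.55%, 5.40% and 0.107%. Among the cytoplasmic IkB genes, Nfkbia took 82.7%, 97.4%, 97.1% and 93.5%, so it led the class in every library. These shares are per kb of the union of exons and move with the lengths used.

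The ratio of an inhibitor to a subunit was read within each library as log2 of (count + 0.5) per kb. Nfkbia over Rela was 3.66, 5.76, 6.71 and 4.88 in replicates 1 to 4, above 0 in every library and highest in replicate 3. Nfkbib over Rela was 0.48, 0.07, 1.29 and 0.86, a range of 1.22 that was the narrowest of the 8 ratios. Its sign rests on the lengths: without length correction it was -0.02 in replicate 1 and -0.43 in replicate 2, and with the longest coding transcript it was -0.04 in replicate 2. Tnfaip3 over Rela was -1.73, 1.58, 2.13 and -1.94, so its sign differed between libraries. Nfkbiz over Nfkb1 was -1.33, 4.59, 4.23 and -0.0024, and Nfkbie over Rel was 1.14, -0.84, -0.67 and 0.82. With the union of exons, Nfkbiz, Tnfaip3 and Nfkbie thus lay above the subunit in some libraries and below it in others. Without length correction Nfkbie over Rel was below 0 in every library, at -0.15, -2.14, -1.97 and -0.47. Nfkbia lay above Rela in each library under each length used.

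Ratios between subunits varied too. Rel over Rela was -0.83, -0.48, 0.18 and -2.96 in replicates 1 to 4, lowest in replicate 4. Relb over Rela was -5.62, -3.55, -2.77 and -0.39, below 0 in every library with these lengths but 0.25 in replicate 4 with the longest coding transcript. Nfkb2 over Nfkb1 was -1.06, 0.03, -1.20 and -7.50, the last value resting on 2 counts. Of the 8 ratios, 3 had a single sign in 4 of 4 libraries with the union of exons: Nfkbia over Rela, Nfkbib over Rela and Relb over Rela.

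**Figure D4:**
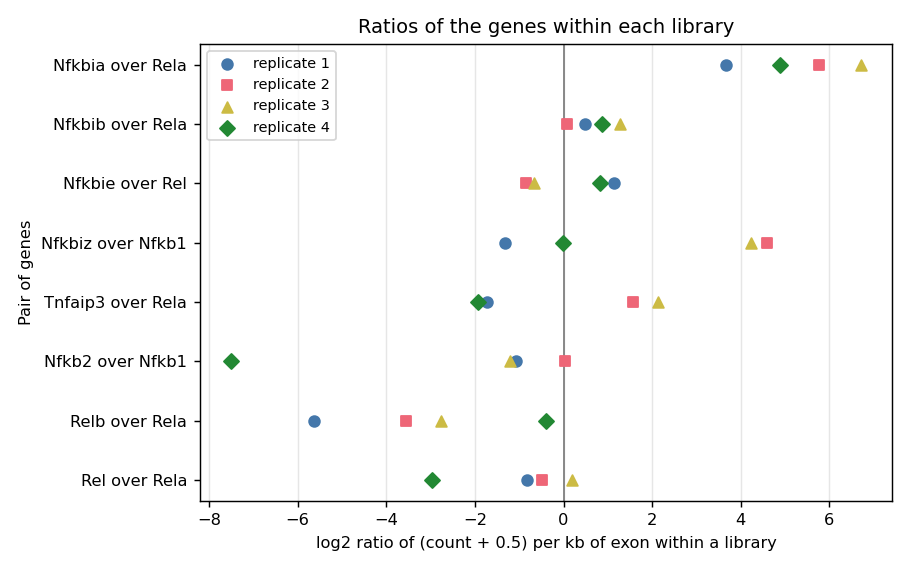
Ratio of 2 genes within a library (x axis, log2 of the ratio of (count + 0.5) per kb of exon) for 8 pairs, with 1 point per library and the vertical line at equal level. Nfkbia over Rela stays right of the line in every library, Tnfaip3 over Rela and Nfkbie over Rel fall on both sides, and Nfkb2 over Nfkb1 has replicate 4 far to the left at -7.50.

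The profile of each gene was set against 7405 other genes that passed the count filter and had a mean of 10 CPM or more. Profiles over the 4 libraries were compared by the root-mean-square difference of centred log2(CPM + 0.5). The nearest to Nfkbia were Ier2, Cd83 and Dusp1, at 0.09, 0.14 and 0.14. Ier2 gave 215, 2517, 3063 and 252 CPM in replicates 1 to 4. Those nearest to Tnfaip3 were the cytokine gene Tnf at 0.07, Egr1 at 0.21 and Ppp1r15a at 0.28. Tnf gave 20.5, 611, 496 and 10.2 CPM. Nfkbiz had no gene as near, its closest being Egr1 at 0.39, Fosb at 0.40 and Tnf at 0.50.

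Of the other genes, Nfkbib was nearest to Klf6 at 0.06, a gene of the immediate early list. Rela was nearest to Morc2a at 0.12 and Brd2 at 0.12, and Rel to the translation factor gene Eif5b at 0.07. Nfkb1 was nearest to Pum3 at 0.03 and Fermt3 at 0.04, Nfkbie to Rreb1 at 0.06 and Vps39 at 0.09, and Relb to Igf2bp2 at 0.14. Nfkb2 was nearest to Tgm2, at 0.29. Genes that, like Nfkb2 itself, did not pass the count filter were outside this search, so nearer ones may have been missed. Among the 10 genes themselves the nearest pairs were Rela with Nfkbib, at 0.45, and Nfkbiz with Tnfaip3, at 0.48, and the farthest was Nfkb2 with Relb, at 3.48. With 4 libraries these distances describe the profiles and carry no test.

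The rest of the pathway was read from lists of its parts. No gene of any list was called by the test of spread at an adjusted p of 0.05 (edgeR), against the same 0% of all genes. An absence of calls by this test does not show a small spread. Among genes of the lists that passed the count filter, the receptors that lead to NF-kappa-B had the narrowest median range. Of 13 receptor genes, 9 were tested. Of these, 0 had an unadjusted p under 0.05, against 4.3% of all genes tested. A log2 range of 2 or more was found in 0, against 23%. Their median log2 range was 0.98 against 1.22 for all genes tested. Tlr2, the receptor of bacterial lipopeptides, gave 150, 459, 444 and 378 CPM in replicates 1 to 4, and the lipopolysaccharide receptor gene Tlr4 gave 104, 141, 148 and 159. The TNF receptor gene Tnfrsf1a gave 158, 133, 121 and 109 CPM, and its relative Tnfrsf1b gave 150, 190, 105 and 63.6. Tlr7, an endosomal sensor of RNA, stood at 318 ± 85.6 CPM (SD, n = 4).

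Kinases and adaptors between receptor and IkB that passed the count filter had a median range close to that of all genes tested. The IKK kinase genes Chuk and Ikbkb gave 98.4, 66.0, 62.4 and 37.8 CPM and 52.5, 136, 97.3 and 80.3 CPM, 2.60-fold ranges. Ikbkg, the regulatory subunit NEMO of the same complex, gave 59.9, 49.3, 45.0 and 0.344 CPM, with 7 counts in replicate 4. Of 21 adaptor and upstream kinase genes, 15 were tested. Of these, 2 had an unadjusted p under 0.05 (edgeR), against 4.3% of all genes tested. A log2 range of 2 or more was found in 3, against 23%, with a median of 1.31. Myd88, the shared adaptor of Toll-like and interleukin-1 receptors, stood at 122 ± 25.8 CPM (SD, n = 4) and Irak2 at 113 ± 29.8. Tbk1 gave 71.5, 87.7, 80.2 and 177 CPM. Map3k8, a kinase that is bound by the Nfkb1 precursor, gave 57.0, 247, 273 and 23.6 CPM, low in replicates 1 and 4. Traf6 gave 28.5, 52.4, 50.7 and 0.688 CPM and Irak4 6.11, 25.1, 32.9 and 19.0. Tab1 gave 11.3, 23.5 and 31.8 CPM in replicates 1 to 3 and 3 counts in replicate 4. Ikbkg and Tab1 did not pass the count filter, so the medians and counts of ranges leave them out. Their log2 ranges were 6.16 and 5.64.

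Other IkB genes and genes of ubiquitin editing included both wide and narrow ranges. Nfkbid, a nuclear IkB gene like Nfkbiz, gave 21.9, 387, 278 and 2.21 CPM in replicates 1 to 4, a 175-fold range. Bcl3, another nuclear IkB gene, gave 0 counts in replicate 1, 415 in replicate 2, 271 in replicate 3 and 1 in replicate 4. Nfkbil1 gave 5.58, 27.8, 22.0 and 15.5 CPM. Of 15 genes of ubiquitin editing around the IKK complex, 10 were tested. Of these, 1 had an unadjusted p under 0.05 (edgeR), against 4.3% of all genes tested. A log2 range of 2 or more was found in 3, against 23%, with a median of 1.60. Tax1bp1, a partner of A20, gave 175, 268, 284 and 102 CPM, and Itch, a ubiquitin ligase that works with it, gave 75.2, 89.2, 92.5 and 27.5. Rbck1, of the linear ubiquitin complex, stood at 64.0 ± 23.4 CPM (SD, n = 4). Birc3, a ubiquitin ligase and NF-kappa-B target, gave 30.7, 187, 182 and 1.03 CPM.

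Several genes of that list were near absent from a single library. Birc2 gave 41.1, 40.9 and 53.5 CPM in replicates 1 to 3 and 4 counts in replicate 4, and Rnf31 gave 11.7, 34.2 and 5.58 CPM and 3 counts. Zc3h12a, which encodes an RNase that destroys cytokine transcripts, had 1 count in replicate 1 and 113, 63.6 and 12.6 CPM in replicates 2 to 4. Like Nfkb2, these genes did not pass the count filter.

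Known target genes of NF-kappa-B were spread more widely. Of 32 target genes, 23 were tested, 14 had an unadjusted p under 0.05 against 4.3% of all genes tested, and 15 had a log2 range of 2 or more against 23%. Their median log2 range was 2.73. Those with the highest CPM were the surface protein gene Cd83 at 768, 9191, 11786 and 827 CPM in replicates 1 to 4, the chemokine gene Ccl4 at 253, 1661, 1972 and 450, the cytokine gene Il1a at 265, 1761, 1627 and 275, and the adhesion gene Icam1 at 227, 891, 875 and 178. Each of these was high in replicates 2 and 3, as Nfkbia was, but not every target gene was. The highest library was replicate 1 for 3 of the 23 tested, replicate 2 for 7, replicate 3 for 11 and replicate 4 for 2. The shares over all genes tested were 25.3%, 18.9%, 15.6% and 40.3%. Some target genes had few counts in a library. Gadd45b gave 7 counts in replicate 1, Ptgs2 gave 2 in replicate 1 and 7 in replicate 4, and Csf1 gave 7 in replicate 4. Summed over the list, the level was 2638, 17503, 19870 and 2917 CPM.

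The immediate early list had a wider median range than the target list. Of 18 genes, 17 were tested. Of these, 17 had an unadjusted p under 0.05 (edgeR), against 4.3% of all genes tested. A log2 range of 2 or more was found in 16, against 23%, with a median of 4.06. Jun gave 1249, 8704, 7177 and 1224 CPM in replicates 1 to 4 and Egr1 gave 127, 4265, 3497 and 91.1. The lists were written with earlier results of these data known, so these counts are descriptions.

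**Figure D5:**
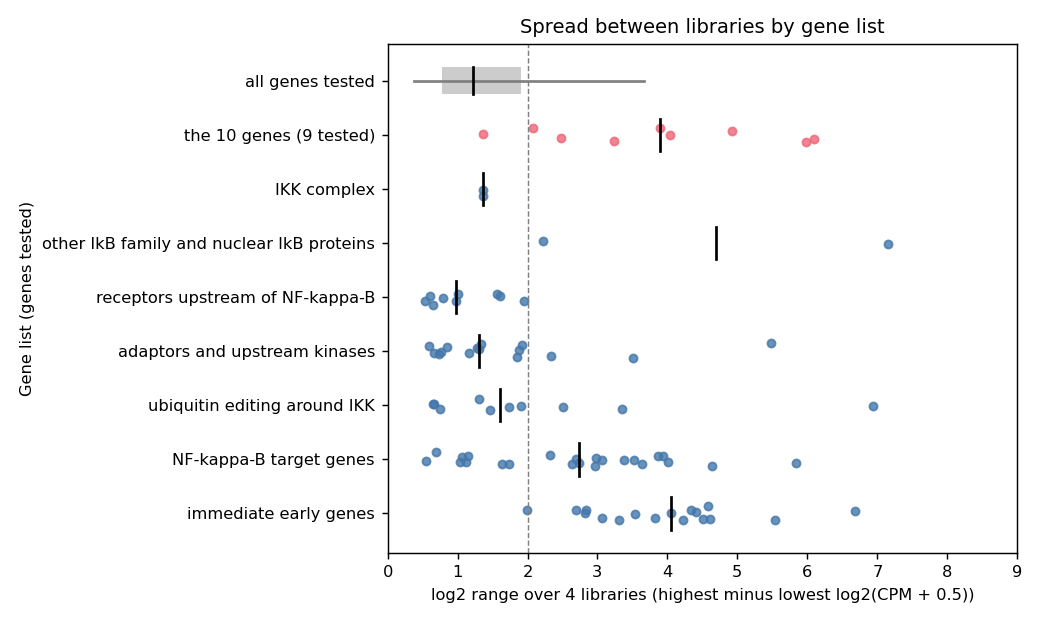
Range of each tested gene over the 4 libraries (x axis, highest minus lowest log2(CPM + 0.5)) by gene list, with 1 point per gene, black ticks at medians and the dashed line at a log2 range of 2. For all genes tested the box spans the middle 50% and the line the middle 90% of genes. The receptor list has its median at 0.98, below that of all genes at 1.22, while the target and immediate early lists have theirs at 2.73 and 4.06.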

How the data were processed

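Sorted microglia of untreated mice were sequenced in 4 libraries, each from RNA with an integrity number over 8, with a low-input cDNA kit, per the labels' protocols. The authors deposited raw read counts per gene symbol, 1 file per library. HTSeq 0.11.2, SAMtools 1.16.1, STAR 2.7.10a and build GRCm39 are named in the submitters' processing notes. The annotation, the read filters and any strand setting were not given in the sources used here. Beside 56832 gene rows, each file ends with 5 rows for reads outside genes, which held 19.9% to 22.7% of listed reads and were left out. CPM were computed on the gene total, and a count of 0 allows up to 3 counts, or 0.129 to 0.147 CPM. Intervals are at 95%. No 2 libraries were alike within counting noise.

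The spread between libraries was tested with edgeR 4.0.16 in R 4.3.3 (filterByExpr with a minimum count of 10, TMM scaling, intercept-only quasi-likelihood fit, upper-tail F test of each dispersion against the trend). DESeq2 1.42.0 gave an alternative. Exon lengths are from GENCODE M21 on GRCm38, and 89.1% of gene rows matched by symbol. The rest was done in Python 3.11.15 (pandas 2.3.3, numpy 2.4.6, matplotlib 3.10.9, scipy 1.17.1). All members were named, all genes of the IKK and other IkB lists, and in the other lists the 4 with the highest mean and the 4 with the widest range at a mean of 10 CPM or more, of which the text gives most. Where a gene is named for few counts in a library, it comes from the same rule. For likeness, the 3 nearest genes of each member were taken. The members and lists were chosen with earlier results of these data known.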

Additional observations from a re-analysis of the deposited data

Results flagged for a closer look

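A library far from the other 3, by Dixon's 95% criterion, was found for 6 of 61 sets of 4 values examined, where chance flags about 1 in 20. Some of the genes were chosen or named for differences between these libraries, and the lists were written with earlier results known. That rate is therefore no yardstick for any of the 6. Nfkbie was low in replicate 4, at 7.32 CPM. The log2 ratio of Nfkb2 over Nfkb1 was low in the same library, at -7.50. Tnfrsf11a, the receptor of RANK ligand, and Tbk1, a kinase related to IKK, were high in replicate 4, at 44.2 and 177 CPM. Irak2 was high in replicate 2, at 157 CPM. Ltbr, the lymphotoxin receptor gene that feeds the non-canonical pathway, was low in replicate 3, at 11.2 CPM against 38.8 to 44.4 in the other libraries.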

How the results depend on the processing

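The count of genes called for their spread stayed at 0 under RLE scaling, without the filter, with DESeq2's outlier rule and without each replicate. It also stayed at 0 with a robust prior, which was added after seeing the data. Genes with wide ranges were not called, so these counts of 0 do not show a small spread. The count of the 10 genes with a log2 range of 2 or more stayed at 9 under TMM and RLE scaling and pseudocounts of 0.1 and 2, and was 5 to 8 with 1 replicate left out, 5 without replicate 4. The count of neighbouring pairs that kept the order by mean level per kb in every library was 1. It was 2 without length correction and 1 to 3 with 1 replicate left out. The count of ratios of 1 sign was 3, 4 without length correction (Nfkbib over Rela left, Nfkbie over Rel and Nfkb2 over Nfkb1 entered), 2 with the longest coding transcript, added after seeing the data (Nfkbia over Rela and Nfkb2 over Nfkb1), and 3 to 4 with 1 replicate left out. Without length correction the log2 ratio turned to -0.97 for Nfkbib over Nfkbiz, -0.10 for Nfkbiz over Tnfaip3, -1.18 for Nfkbie over Rel, -0.28 for Rel over Nfkb1 (-1.14 with the longest coding transcript) and 0.26 for Rel over Rela. With 1 replicate left out it spanned -0.56 to 1.07 for Nfkbib over Nfkbiz, -0.23 to 0.43 for Nfkbie over Rel, -0.70 to 0.66 for Tnfaip3 over Rela, -0.045 to 1.16 for Rel over Nfkb1 and -1.70 to 2.30 for Relb over Nfkb2. These turns come from the lengths or the library left out. The alternative with RefSeq protein lengths was not run, as no such table was used. No paired analysis was possible because there is 1 group.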
